A study of Mus musculus with 24 samples.

Results

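Transcripts made in developing sperm were followed on microarrays of mouse epididymal fat, with liver of the same mice as background. The 9 genes were Prm1, Prm2, Tnp1, Tnp2, Akap3, Akap4, Odf1, Smcp and Ldhc, of 18193 genes with at least 1 probe set annotated to them alone. They were read by 18 of 34945 such probe sets. They had been chosen by their signals on these same fat arrays, so those signals and every difference in them are given as a description with no test.

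The study asked about GPR120, a receptor for long-chain fatty acids encoded by Ffar4, in obesity caused by a high-fat diet (HFD). Fat and liver came from 12 mice on a mixed 129/Sv and C57BL/6 background, each giving both tissues to 24 single-sample Affymetrix arrays. The 3 wild-type (WT) mice on normal diet (ND) were numbered 686, 687 and 690, and 3 knockout (KO) mice on ND were 718, 719 and 720. On HFD the WT mice were 546, 547 and 560 and the KO mice 427, 428 and 429. The age of the mice, the length of the diet and the design of the deletion are not given in the sources used here. Ffar4 itself read 23.1 to 35.7 on the 6 KO fat arrays and 58.3 to 171 on the 6 WT fat arrays.

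Sperm form in the testis from spermatogonia, which become spermatocytes that go through meiosis and then haploid spermatids. Spermatids replace histones first with transition proteins and then with protamines, and build a tail with a fibrous sheath, outer dense fibres and a mitochondrial capsule. They stop transcription before they are complete and leave the testis through the epididymis, a duct that the epididymal fat pad adjoins. Transcripts of these genes are textbook markers of spermatids (Ldhc already of spermatocytes), and adipocytes and hepatocytes have no known use for them.

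Every array had been scaled to 1 level, with a trimmed mean of 100.03 to 100.05 and a median of 13.5 to 25.8 intensity units. Both tissues carried their own markers. All 10 adipocyte genes measured were higher in fat than in liver in each of the 4 groups, and all 9 hepatocyte genes lower (limma, adjusted p under 0.05). Adipoq, the adiponectin gene, read 3800 (mouse 686) to 7424 in fat and at most 27.4 in liver. Signal at the 3' end of Actb relative to its 5' end, which moves with RNA integrity, was log2 0.88 to 0.92 on WT ND, 0.72 to 0.85 on KO ND, 1.13 to 1.68 on WT HFD and 0.62 to 0.80 on KO HFD fat arrays. The part of RNA integrity in the results was not tested. In bulk tissue, fewer cells of a type and less RNA per cell cannot be told apart.

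The protamine and transition protein genes, whose products pack sperm DNA, were highest on the WT ND arrays of mice 686 and 690. Prm1 (probe set 1415955_x_at) read 4371 in mouse 686, 4617 in mouse 690 and 451 in mouse 687, against 366, 266 and 205 in KO ND mice 718, 719 and 720. On HFD it read 71.0, 154 and 83.6 in WT mice 546, 547 and 560 and 417, 5.89 and 1.03 in KO mice 427, 428 and 429. The 12 liver arrays lay between 52.7 and 270.5 with a median of 104, so on this probe set the WT HFD fat arrays did not stand above liver. The other probe sets of Prm1 had less liver signal. Probe set 1439379_x_at read 0.10 to 6.76 on 11 liver arrays and 138 on that of mouse 686, while the WT HFD fat arrays read 58.9, 164 and 81.2 and mouse 427 read 561.

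Prm2 (1448105_at), the second protamine gene, read 4437, 255 and 3720.0 in WT ND mice 686, 687 and 690 and 438, 303 and 365 in KO ND mice 718, 719 and 720. It read 119, 60.5 and 27.1 in WT HFD mice 546, 547 and 560, then 342, 5.24 and 2.77 in KO HFD mice 427, 428 and 429, with liver between 0.51 and 53.8 (median 4.02). Mouse 687 thus lay below all 3 KO ND mice for Prm2, whereas for Prm1 it lay above them. Tnp1 (1415924_at), a transition protein gene, read 4411, 127 and 2827 in the WT ND mice in the same order and 122, 79.4 and 54.5 in the KO ND mice. On HFD its signals were 12.3, 55.2 and 27.5 in WT and 139, 0.17 and 0.69 in KO mice, and liver ranged from 0.28 to 33.8 with a median of 1.17. Tnp2 (1422419_s_at), the other transition protein gene, read 3723, 55.4 and 1674 on WT ND and 65.8, 34.7 and 21.8 on KO ND. It read 0.74, 13.4 and 6.74 on WT HFD and 63.1, 2.74 and 0.48 on KO HFD, against 0.45 to 14.7 in liver (median 1.22). For each of these 4 genes mice 686 and 690 were the brightest fat arrays by far. Mouse 427 stood out from the other KO HFD mice. On the brightest probe set of each gene it was near the level of KO ND fat or of mouse 687. On the other probe sets of Prm1 and Tnp1 it was above KO ND fat and mouse 687.

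**Figure D1:**
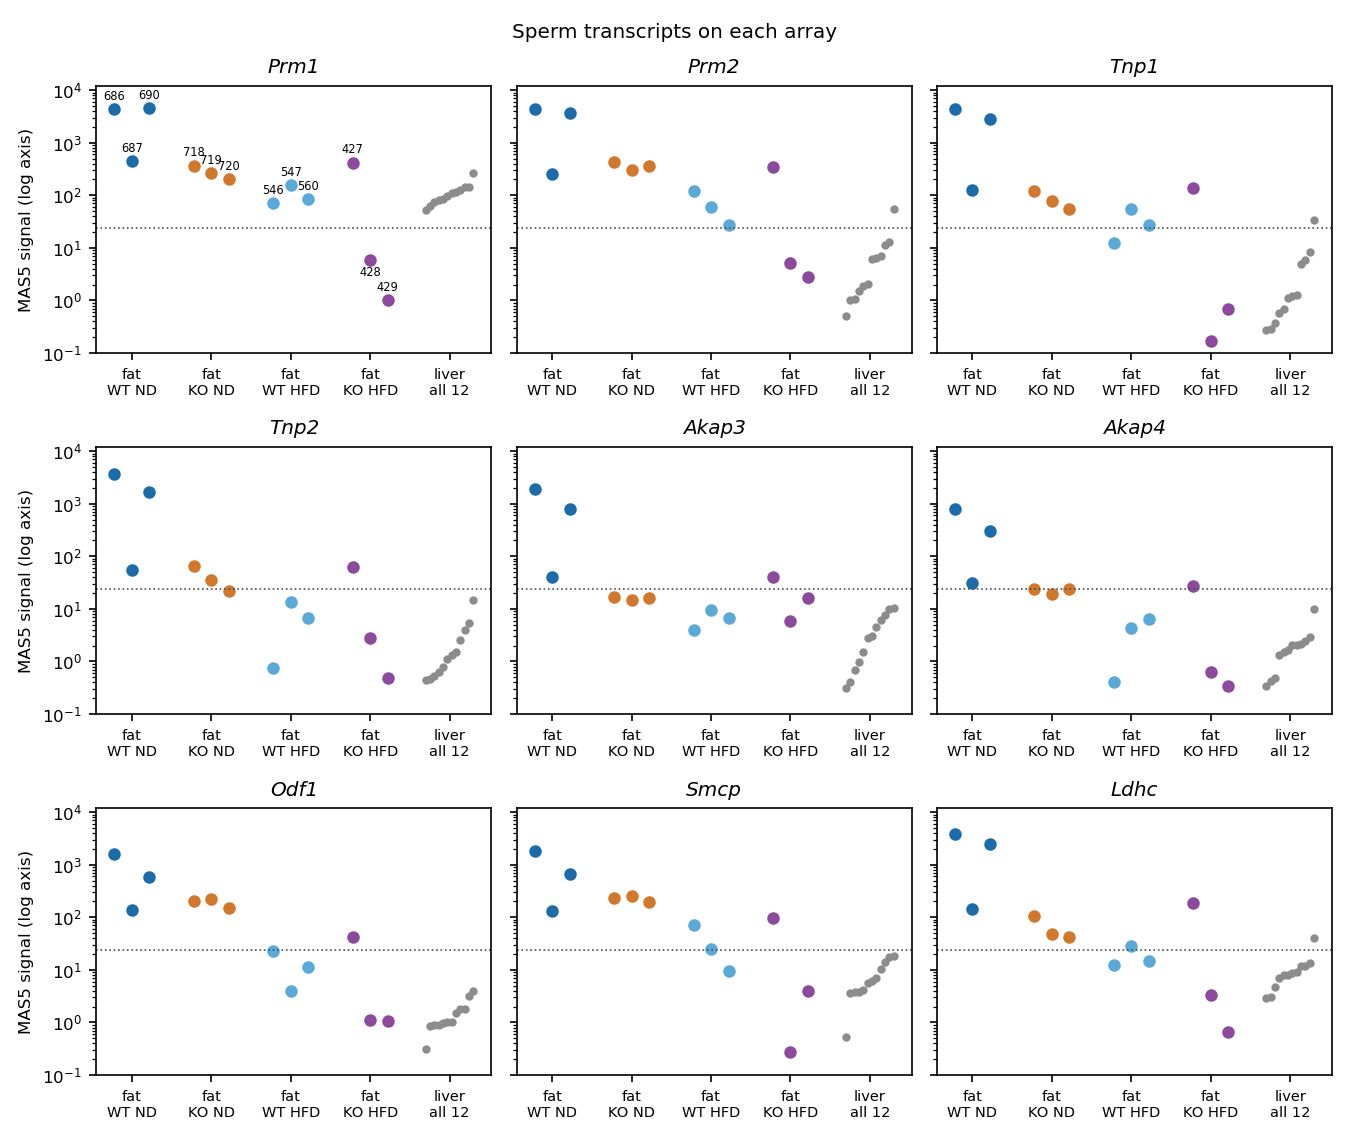
MAS5 signal (log axis) of the brightest probe set of each sperm transcript on the 12 fat arrays, by group, and on the 12 liver arrays in rising order (grey). Each point is 1 array, mouse numbers are printed for Prm1 with the same left-to-right order in each panel, and the dotted line is the filter level of 23.8; mice 686 and 690 are highest in every panel.

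Among the tail genes, Akap3 and Akap4 encode anchoring proteins of the fibrous sheath. Akap3 (1456591_x_at) read 1883, 41.0 and 784 in WT ND mice 686, 687 and 690, against 17.0, 14.7 and 16.2 in KO ND mice 718, 719 and 720. On HFD it stayed at 4.01, 9.71 and 6.72 in WT and 40.5, 5.86 and 16.3 in KO mice, with liver at 0.31 to 10.2 (median 2.95). Akap4 (1419019_a_at) read 800.5, 31.5 and 303 on WT ND and 24.2, 19.11 and 23.5 on KO ND. On KO ND arrays Akap3 was under the filter level and Akap4 near it. Akap4 read 0.40, 4.24 and 6.47 on WT HFD and 26.7, 0.63 and 0.34 on KO HFD, and 0.34 to 9.89 in liver (median 1.83). A second Akap3 probe set, 1421531_at, was dim throughout, at 68.0 and 21.3 in mice 686 and 690 and at most 10.8 on the other fat arrays.

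The promoters of the 9 genes were also compared, as a description. RefSeq promoters of GRCm38.p6, from 250 bases before to 50 after each start, were on hand for 8 of the 9, as 10 sequences, and for 27025 genes in all. The cyclic AMP response element TGACGTCA, the palindrome bound by factors of the CREM family that act in spermatids, was in none of the 10 and in 1.79% of all 32851 promoters. The variant TGATGTCA (TGACATCA on the other strand), searched for after the sequences had been seen, was in promoters of 4 of the 8 genes, Akap3, Akap4, Smcp and Tnp1, and of 4.18% of all genes. In the 3 stretches below, shown because each holds that variant before the start, the capitals mark it.
Akap3, chr6:126853038-126853097, plus strand: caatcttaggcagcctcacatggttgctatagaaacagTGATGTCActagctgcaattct
Akap4, chrX:7067454-7067513, plus strand: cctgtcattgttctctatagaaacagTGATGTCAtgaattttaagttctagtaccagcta
Tnp1, chr1:73015960-73016019, minus strand: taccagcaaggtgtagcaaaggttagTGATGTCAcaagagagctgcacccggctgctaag
The matches begin 22, 35 and 94 bases before the starts of Akap3, Akap4 and Tnp1, and Akap3 has another that begins 1 base before its start. The fibrous sheath genes Akap3 and Akap4 share the 20 bases ctatagaaacagTGATGTCA, found in 2 promoters of the table, theirs alone. A match is a description of letters and not evidence that a factor binds. Whether the genes share a control was not tested.

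Odf1 and Smcp, which encode a protein of the outer dense fibres and one of the mitochondrial capsule, stood clear of liver on all KO ND arrays, whereas the sheath genes were under or near the filter level there. Odf1 (1422585_at) read 1624, 137 and 575 in WT ND mice 686, 687 and 690 and 206.5, 226 and 153 in KO ND mice 718, 719 and 720. On HFD it read 22.9, 3.95 and 11.4 in WT and 43.0, 1.11 and 1.07 in KO mice, and no liver array passed 3.98 (lowest 0.31, median 1.005). Smcp (1418358_at) read 1839, 129 and 681 on WT ND and 229.7, 255 and 198 on KO ND. For both genes mouse 687 was below every KO ND mouse. Smcp read 70.8, 24.6 and 9.39 on WT HFD and 95.4, 0.28 and 3.88 on KO HFD, with liver at 0.52 to 18.2 (median 5.96). Ldhc (1415847_at), the lactate dehydrogenase of sperm and spermatocytes, read 3841, 141 and 2491 on WT ND and 106, 48.6 and 43.1 on KO ND. It read 12.2, 28.2 and 14.7 on WT HFD and 184, 3.37 and 0.66 on KO HFD, with liver at 2.86 to 40.7 (median 8.43). Mouse 427 was above every KO ND mouse and mouse 687 for Ldhc.

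Mice 686 and 690 were the 2 highest fat arrays on all 18 probe sets, though their order differed between probe sets of Prm1 and of Tnp1. On each of the 3 Odf1 probe sets mouse 687 was below all 3 KO ND mice; on the other 2 it read 47.3 and 65.9, against 54.3 to 55.0 and 82.9 to 136 on KO ND. All 3 Akap4 probe sets were over 140 in mice 686 and 690 and at most 31.5 elsewhere. None of the 9 genes was named by a probe set annotated to several genes.

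The arrays fell in an order that crossed the groups. The mean log2 signal over the 9 genes, with values under 1.08 raised to it, was 11.35 in mouse 686 and 10.44 in mouse 690. KO ND mouse 718 (6.80), WT ND mouse 687 (6.80), KO HFD mouse 427 (6.65) and KO ND mice 719 (6.36) and 720 (6.14) followed close together. WT HFD mice 547, 560 and 546 came next at 4.39, 3.86 and 3.68, and KO HFD mice 428 and 429 were lowest at 1.24 and 0.90. By group this was 9.53 ± 2.41 (SD, n = 3) on WT ND, 6.44 ± 0.33 on KO ND, 3.98 ± 0.37 on WT HFD and 2.93 ± 3.22 on KO HFD. WT ND overlapped KO ND, and WT HFD lay inside the range of KO HFD, so those neighbours in the order did not differ beyond the spread between arrays. KO ND and WT HFD did not overlap.

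The 9 genes did not rise by the same factor in the arrays that held them. Mouse 686 read 0.947 times mouse 690 for Prm1 and 1.19 times for Prm2. The ratio was 1.54 for Ldhc, 1.56 for Tnp1, 2.22 for Tnp2, 2.40 for Akap3, 2.64 for Akap4, 2.70 for Smcp and 2.82 for Odf1. These ratios are of the brightest probe sets. The other 2 of Prm1 gave 0.986 and 1.14 and the other of Ldhc 1.78, while the dim one of Tnp1 gave 0.841, so the place of Tnp1 depends on the probe set. Protamine signals were thus about equal in the 2 mice while tail genes were over 2 times as bright in mouse 686. Relative to the median KO ND array, mouse 686 was 7.86-fold higher for Odf1, 8.01-fold for Smcp, 12.2-fold for Prm2 and 16.4-fold for Prm1. The same ratio was 55.6 for Tnp1, 79.1 for Ldhc and 107 for Tnp2, and at least 79.3 for Akap3 and 33.7 for Akap4, whose KO ND median was under the filter level of 23.8.

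Mice 687 and 427, of different genotype and diet, were set against the KO ND median in the same way. Mouse 687 read 1.70 times the KO ND median for Prm1, 1.60 for both Tnp1 and Tnp2 and 2.91 for Ldhc, but 0.699 for Prm2, 0.661 for Odf1 and 0.564 for Smcp. Mouse 427 read 1.57 times it for Prm1, 1.75 for Tnp1, 1.82 for Tnp2 and 3.78 for Ldhc, but 0.938 for Prm2, 0.208 for Odf1 and 0.415 for Smcp. Several of these values lay within the KO ND range. Prm2 of mouse 427 was above that of mouse 719, and Tnp2 of both mice was below that of mouse 718. On the dim Tnp1 probe set mouse 687, at 13.23, was below all KO ND arrays and mouse 427, at 38.5, above them. On Prm1 probe sets 1437054_x_at and 1439379_x_at mouse 427 read 540 and 561, above mouse 687 (307 and 372) and every KO ND array. The likeness of the 2 profiles, on the brightest probe sets, was noticed after the values were seen and was not tested.

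**Figure D2:**
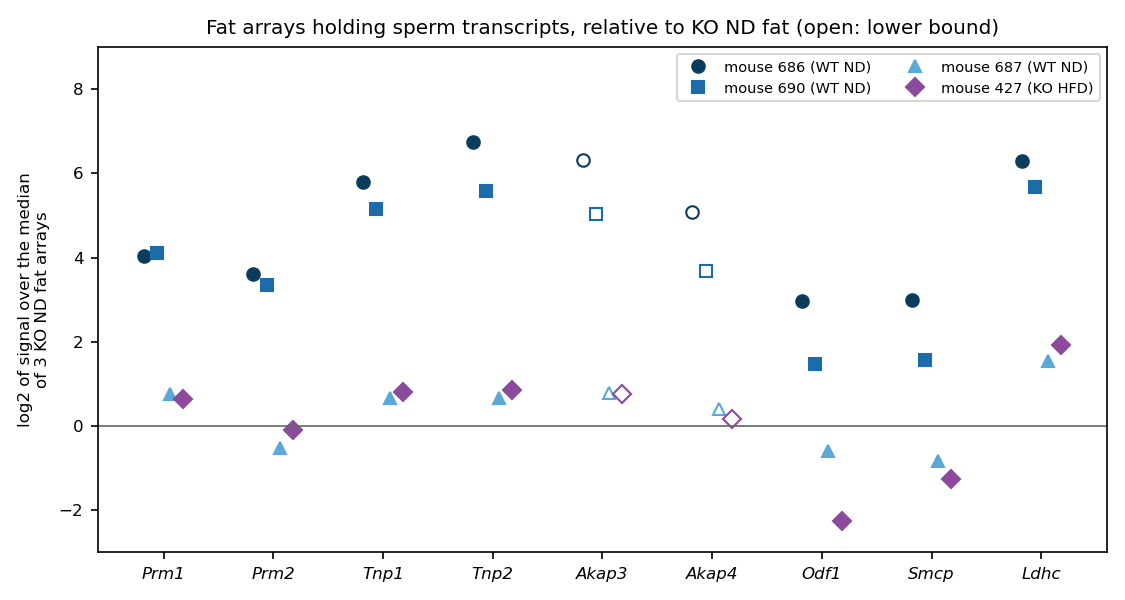
Log2 of the signal of mice 686, 690, 687 (WT ND) and 427 (KO HFD) over the median of the 3 KO ND fat arrays, for each sperm transcript; 1 array per point, and open symbols are lower bounds where the KO ND median was under the filter level. Prm2, Odf1 and Smcp of mice 687 and 427 lie below 0, and those 3 genes and Prm1 have the lowest values in mouse 686.

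Between genotypes on ND the question is whether loss of GPR120 goes with another level of these transcripts. All 3 KO arrays were below all 3 WT arrays for 5 of the 9 genes (Prm1, Tnp1, Akap3, Akap4 and Ldhc), which 8.42% of all 11989 genes tested also met in that direction. The arrays overlapped for Prm2, Tnp2, Odf1 and Smcp. Fitted log2 differences were -1.27 ± 1.43 (SE) for Smcp, -1.38 ± 1.31 for Odf1, -2.15 ± 1.58 for Prm2 and -4.19 ± 1.65 for Ldhc. The median of the 9 was -3.15, against 0.06 over all genes tested. The spread within WT was wide. Prm1, for example, averaged 3146 ± 2337 (SD, n = 3) in WT and 279 ± 81.5 in KO mice. With mouse 687 as the only WT ND array the differences of Prm2, Odf1 and Smcp turned to 0.52, 0.50 and 0.81, and those of Tnp1, Tnp2 and Ldhc shrank to -0.65, -0.59 and -1.22.

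On HFD the genotypes overlapped for all 9 genes, where 19.0% of genes tested had every KO array below every WT array. The KO group held the widest spread, since mouse 427 was the highest of the 6 HFD arrays for each gene. Mice 428 and 429 read below all WT mice for Prm1, Prm2, Tnp1, Odf1, Smcp and Ldhc. For Odf1 all of those WT signals were under the filter level too, where signals have no order. So were some of the WT signals for Tnp1, Smcp and Ldhc. Prm1 averaged 141 ± 239 in KO and 103 ± 45.0 in WT mice. Leaving out mouse 427 moved its fitted log2 difference from -2.81 to -5.26, and that of Tnp2 from 0.31 to -1.42, values that rest on signals near the floor in mice 428 and 429. Beside the sperm transcripts, the array of mouse 427 carried epithelial Krt19 and Cdh1 at 406 and 343, where no other HFD fat array passed 47.5 and 37.4, and Lcn5 at 7.83. Their part in the result was not tested.

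Between diets the WT arrays separated for all 9 genes, with every HFD array below every ND array, as they were for 33.1% of genes tested. The fitted log2 difference (HFD minus ND) was -4.42 for Smcp, -4.43 for Prm1 and -4.80 for Prm2. All 3 WT HFD arrays were under the filter level for Tnp2, Akap3, Akap4 and Odf1, so the size of their differences rests on dim signals and is not given. With mouse 687 as the only WT ND array it was -2.14 for Prm2, -2.26 for Tnp1, -2.35 for Smcp and -3.04 for Ldhc. In KO mice the diets separated for Odf1 and Smcp and overlapped for the other 7, where 34.2% of genes tested separated in that direction. Odf1 averaged 15.1 ± 24.2 on HFD and 195 ± 37.6 on ND. Both diet comparisons carry another change in the tissue. Lcn5, a lipocalin gene of epididymal epithelium, read 6230 to 10683 on all 6 ND fat arrays and at most 7.83 on all 6 HFD fat arrays.

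The 14 epididymis epithelium genes measured, of 25 listed, did not follow the sperm transcripts across ND arrays. Their summed signal was 42153 to 66292 on WT ND, 49411 to 60046 on KO ND, 383 to 833 on WT HFD, 70.9 to 610 on KO HFD and 79.3 to 312 in liver. Mouse 686, with the most sperm transcripts, had the lowest sum of the 6 ND mice, and its ratio to mouse 690 was 0.581 to 0.910 over the 14 genes (median 0.666). This was not particular to these genes. The median ratio was 0.636 for adipocyte and 0.698 for hepatocyte genes above the filter level in both mice, with 1 of 9 in each list over 1. All 14 fell on HFD in each genotype, against 30.3% of all genes in WT and 26.7% in KO mice. Adam7 read 4089 to 7142 on WT ND and 0.67 to 2.04 on WT HFD, and Rnase10 4282 to 6910 and 5.92 to 10.2 (limma, Benjamini-Hochberg adjusted p = 2.19e-08 and 1.99e-08). None was called between genotypes on ND, with 0 also at an unadjusted p under 0.05. On HFD 3 were called higher in KO mice (Adam7, Ros1 and Defb15, at most 14.6 on any HFD array) and 1 lower, where 21.4% of all genes were called in either direction. Those 3 were under the filter level on every HFD array and were tested through their ND signals. Their part in the results on sperm transcripts was not tested. Of 6 vas deferens and seminal vesicle genes measured, Svs2 was high on 1 array only, at 382 in KO ND mouse 719 and at most 6.70 on the others.

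Other spermatid genes showed whether the pattern reached beyond the 9. Of 57 listed, 53 were measured, and 51 of them in mouse 686 and 47 in mouse 690 exceeded 2 times their highest liver signal. Only 12 to 17 did so on the other 4 ND arrays, 18 in mouse 427, 2 or 3 on WT HFD and 1 in each of mice 428 and 429. The share of all genes above that mark is not given for these counts or those of the other lists below. They therefore compare arrays and are not set against a background. Hils1, which encodes a linker histone-like protein of spermatids, read 1819 and 613 in mice 686 and 690, 4.09 in mouse 687 and 0.81 to 3.81 on KO ND. Crisp2 behaved more like Prm2, with 1867 and 700.5 in those mice, 61.3 in mouse 687, 66.5 to 107 on KO ND and at most 9.55 in liver. Spaca1 was also highest in mice 686 and 690, at 427.3 and 81.9, but went another way elsewhere. It read 43.4 to 77.9 on the HFD fat arrays, 21.3 to 30.8 on KO ND, 16.7 in mouse 687 and at most 9.45 in liver. Over all 53 genes mouse 686 was a median of 3.19 times mouse 690 (0.970 to 5.26), and higher for 52. For the 9 sperm transcripts the median was 2.22.

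Tests of the other spermatid list repeated the dependence on single mice. Of 57 genes 49 passed the filter, but only 16 did without mice 686 and 690, so most passed through the arrays in which they were high. Between genotypes on ND limma called 0 of 49 (0.0334% of all genes were called lower). Before adjustment 35 had a p under 0.05, as did 15.7% of all genes. Without mouse 687 limma called 40 lower, while the share of all genes called lower rose to 5.56%. That fit leaves mice 686 and 690 as the WT ND arrays, through which most of the list was tested. Neither the 40 nor the 35 shows how the list as a whole behaved. On HFD limma called 0 of 49, with 1 at an unadjusted p under 0.05. Of all genes 21.4% were called in either direction and 34.7% had an unadjusted p under 0.05. The choice of the 49 by the filter limits the HFD counts as well.

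By diet, in WT mice 3 of the 16 genes tested without mice 686 and 690 fell on HFD and 1 rose, against 19.4% of all genes lower. With all mice 45 of 49 were called lower, against 30.3% of all genes. That count does not show how the list as a whole behaved, since most of its genes were tested only because they were high in WT ND mice 686 and 690. Dkkl1, which encodes an acrosomal protein, read 0.51 to 0.83 on HFD and 69.3 to 650.3 on ND (limma, adjusted p = 0.000235). Pgk2, the phosphoglycerate kinase of the germ line, Txndc2, Hils1, Ldhal6b and Capza3, an actin-capping subunit of sperm, were also called lower. No WT HFD array passed 3.15 for any of these genes. The size of their differences therefore depends on the floor and is not given. Hils1 and Capza3 were under the filter level on every fat array but those of mice 686 and 690. They were thus tested only through WT ND arrays in which they were high. Without mouse 686 the count was 25 of 32 tested, against 26.9% of all genes. In KO mice 5 of 49 fell, against 26.7% of all genes. These were Oaz3, Pgk2, Dkkl1, Dbil5 and Hook1. The last is a gene that liver also expressed, at 455 to 723. The KO count was 13 without mouse 427 and 1 or 2 without any other of the 6 mice. Most of the 49 were tested through mice 686 and 690, which are not in that comparison. The KO count of 5 thus does not show how the list as a whole behaved. The diet effect differed between genotypes for Tekt2, a gene of sperm tail microtubules (interaction log2 4.46 ± 1.26, adjusted p = 0.0457), while 10.6% of all genes passed that test in either direction. That call ended without the filter, with the mean of probe sets and on leaving out any of 10 of the 12 mice, with an adjusted p of 0.0506 to 0.102 by limma where it ended. Tekt2 read 342 and 85.2 in WT ND mice 686 and 690 and 1.66 to 23.95 on the other fat arrays, so it passed the filter through those mice.

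Earlier germ cells and testis support cells were also looked for. Of 26 spermatocyte genes measured 20 in mouse 686 and 16 in mouse 690 exceeded 2 times their highest liver signal, against 3 to 5 in mouse 427 and on the other ND arrays. Mael, of the piRNA pathway, read 1419 and 419 in mice 686 and 690, 33.5 in mouse 687, 41.9 in mouse 427 and 7.42 to 17.0 on KO ND. Sycp1, a synaptonemal complex gene, read 175 and 60.6 in those 2 mice and at most 9.23 on the other 10 fat arrays. Sycp3 of the same complex went another way, at 577 to 750.4 on all 6 HFD arrays, 44.3 to 120 on KO ND and 472 and 193 in mice 686 and 690. It was the 1 spermatocyte gene called higher on HFD in each genotype. Of 12 tested, 10 were lower in WT and 1 (Spo11) in KO mice, against 30.3% and 26.7% of all genes. Both counts have the same limit as those of the spermatid genes. Dazl, which marks spermatogonia and spermatocytes, read 162 and 43.5 in mice 686 and 690 at most 0.99 elsewhere on ND, and 11.8 in mouse 427. Between genotypes on ND limma called 0 of 12 spermatocyte genes, with 10 at an unadjusted p under 0.05, as had 15.7% of all genes. Only 3 spermatocyte genes passed the filter without mice 686 and 690. Most of the 12 were thus tested through WT ND arrays in which they were high, so the 10 do not show how the list behaved.

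Among 11 Sertoli genes measured, Cst9 read 378 and 122 and Aard 302 and 122 in mice 686 and 690, against at most 11.97 and 31.0 on the other ND arrays. Aard reached 32.0 in liver. Tsx read 56.0 and 26.0 in those mice and at most 8.10 on the other ND arrays. Cst12 instead read 3246 to 5401 on all ND arrays, Sox9 95.9 to 139, Inha 67.1 to 145 and Cldn11 57.3 to 86.1. Amh, Fshr and Gata1 were under the filter level on all fat arrays. Dhh read 37.7 and 18.3 in mice 686 and 690 and 21.1 to 32.2 on the other ND arrays. Of 7 tested 4 fell on HFD in each genotype, against 30.3% of all genes in WT and 26.7% in KO mice, and limma called 0 between genotypes on ND, with 1 at an unadjusted p under 0.05. Of 5 Leydig genes measured, Cyp17a1 and Cyp11a1 did not follow the sperm transcripts. They read 105 to 151 and 32.9 to 92.9 over all 6 ND arrays, and both fell on HFD in each genotype. Cyp17a1 was also expressed in liver, at 69.2 or more. Hsd3b1 read 54.2 and 24.9 in mice 686 and 690 and at most 9.92 on the other ND arrays, but 74.5 in WT HFD mouse 560. Hsd17b3 read 34.1 and 15.5 in mice 686 and 690, at most 7.32 on the other ND arrays and up to 16.6 in liver. Star read 8.41 to 23.0 on the ND arrays, without a peak in mice 686 and 690. Of 14 spermatogonia genes measured 6 in mouse 686 and 3 in mouse 690 exceeded 2 times their highest liver signal, and of 4 tested 3 fell on HFD in WT and 2 in KO mice, too few to set against those shares.

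**Figure D3:**
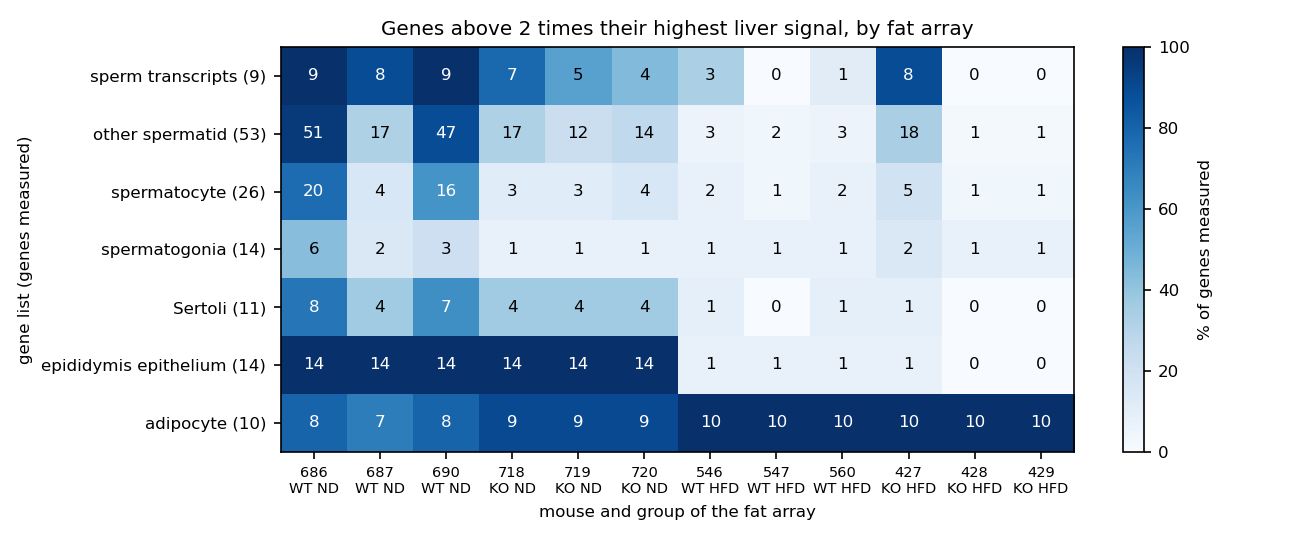
Number of genes of each list whose signal on a fat array exceeded 2 times their highest signal on the 12 liver arrays (cells), coloured by the percentage of the genes measured, which stand in brackets. Other spermatid and spermatocyte genes peak in mice 686 and 690, whereas all 14 epididymis epithelium genes pass on every ND array and at most 1 on HFD arrays. The share of all genes above that mark is not given.

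Fat was also set against liver in each group by limma, for genes outside the 9. Of 44 other spermatid genes tested 16 were higher in KO ND fat than in liver, against 45.5% of all genes. In WT ND fat 40 were higher, against 44.7%, a count largely set by the filter, which most of them passed through mice 686 and 690. Without those mice it was 6 of 14, against 28.7% of all genes. Of the 44, 3 were higher and 1 lower on HFD in KO mice (40.4% of all genes higher). In WT mice on HFD 2 were higher and 1 lower (39.8% higher). Spaca1 was among those higher in both genotypes. Most of the 44 were tested through WT ND mice 686 and 690, which are not in the KO ND or HFD comparisons. Those counts thus do not show how the list as a whole behaved. With mouse as a replicate block the WT HFD count was 5 in place of 3. Crisp2 was among the called genes on ND in both genotypes, with log2 differences of 7.41 ± 1.05 in WT and 5.96 ± 1.05 in KO mice (adjusted p = 3.22e-06 and 4.21e-05). The median of all genes shifted with scaling here, by log2 0.35 in WT ND and 0.39 in KO ND, and by 0.09 and 0.15 after quantile normalization.

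In liver, 4 of the 9 genes passed the filter level on at least 1 array, namely Prm1, Prm2, Tnp1 and Ldhc, and the liver of mouse 686 was the highest for each. Prm2 read 53.8 there against at most 13.2 in the other 11 livers, Tnp1 33.8 against 8.48 and Ldhc 40.7 against 13.6. The other 2 Prm1 probe sets and the other of Ldhc were also highest there, at 115.5, 138 and 35.0. The remaining probe sets were under the filter level in every liver, where signals have no order, and their highest liver was that of mouse 686, 687, 690, 428 or 720. The liver of mouse 686 was the highest for 0 of 14 epididymis epithelium genes. For the other spermatid list it was highest for 10 of 53, and the livers of mice 687 and 690 for 10 each.

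**Figure D4:**
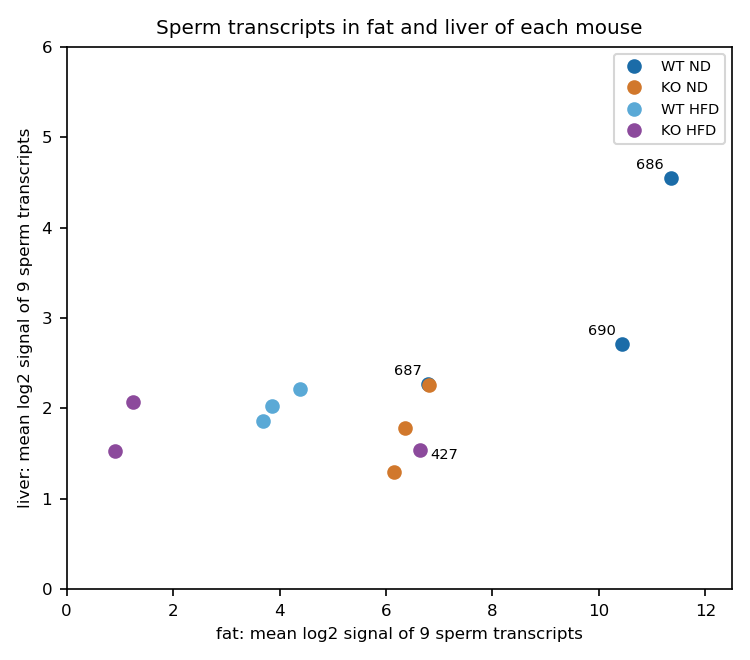
Mean log2 signal of the 9 sperm transcripts in fat (x axis) and liver (y axis) of each mouse, coloured by group, 1 point per mouse. Mouse 686 is highest in both tissues, at 11.35 and 4.55, while the other 11 livers lie between 1.30 and 2.71.

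The genes most like the 9 in pattern were sought by Pearson correlation with their mean log2 signal, as a description that rests largely on mice 686 and 690. Over the 12 fat arrays the highest were Dnajb8 (r = 0.985), 1700018B24Rik, Tekt4, Dbil5, Spata4, Lrrc34, Usp2, 4933411K16Rik, Fam71e1 and Adam3 (r = 0.964). Spata4 read 2606 and 1055 in mice 686 and 690, 87.7 in mouse 427 and 0.25 to 13.0 on the other 5 HFD arrays. Over the 6 ND arrays they were Phf7 (r = 0.999), Rpl39l, Cypt1, 1700003F12Rik, 1700042G07Rik, Meig1, Actrt2, Spata18, Cmtm2b and Adam3 (r = 0.997). Of 11980 genes tested beside the 9, 39 had r above 0.95 over 12 arrays and 501 over the 6 ND arrays. Among the 9 genes themselves r ranged from 0.702 (Akap3 with Smcp) to 0.983 (Tnp2 with Akap4) over 12 arrays.

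Position offered 1 further contrast. Tnp2, Prm3, Prm2 and Prm1 are consecutive coding genes on chromosome 16 in the RefSeq gene table of build GRCm38.p6, while the other members lie on chromosomes 1, 3, 6, 7, 15 and X. Prm3, which encodes an acidic protein of spermatids, lies within that run but was not one of the 9. It read 534 and 137 in mice 686 and 690, a ratio of 3.90, above that of each of the 9. It read 20.7 in mouse 687, 16.4 to 26.0 on KO ND and 5.08 to 25.1 in liver. Its signal outside mice 686 and 690 was therefore within the liver range apart from KO ND mouse 718 (26.0) and mouse 427 (29.3).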

How the data were processed

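The deposited values were linear MAS5 signals (intensity), per the submitters' processing notes; no MAS5 version is named in the sources used here. The authors' scaling was kept: trimmed means (2% at each end) were 100.03 to 100.05. Of 45101 probe sets, 64 controls, 932 annotated to several genes and 9160 others without a gene were left out. The brightest probe set by mean signal stood for each gene. Values under the 10th percentile (1.08 in fat, 1.09 over both tissues) were raised to it before log2, and genes were tested where the mean signal reached that of the median probe set (23.8 in fat, leaving 11989; 21.6 jointly, leaving 11880). Group means were fitted with limma 3.58.1 (R 4.3.3) with a variance trend, and genes under a Benjamini-Hochberg adjusted p of 0.05 were called. The same mouse gave both tissues, so its number pairs them; the 2 arrays of a mouse, each taken as deviations from the mean of its group, correlated at -0.00 to 0.09. The members and lists were chosen with earlier results of these data known. Genes named were the 9, up to 6 called spermatid genes by size of difference, up to 3 called genes per other list by p, and 10 most correlated genes per array set. Lcn5 and Adipoq served as references. Further genes (Krt19, Cdh1, Prm3, Mael, Sycp1, Dazl, Cst9, Aard, Tsx, Amh, Fshr, Gata1, Hsd3b1, Hsd17b3, Star, Svs2) were named after their values were seen. Alternatives tried included quantile normalization, dropping the filter or the floor, means of probe sets, log means for choosing probe sets and filtering, the compared arrays alone, mouse as a block and leaving out mice. Simulated data with known changes were used to test the procedure. Mice were separate animals per the labels. Protein sequences were not used here.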

Additional observations from a re-analysis of the deposited data

Results flagged for a closer look

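The diet effect in fat differed between KO and WT mice by the interaction test of limma for 6 named list genes. Tekt2 had an interaction log2 difference of 4.46, with signals of 342 and 85.2 in mice 686 and 690 and 1.66 to 23.95 on the other 10 fat arrays. Adam7, an epididymis gene near 0 on HFD in each genotype, had 2.63. Pparg had -1.78, Retn -2.34 and Pnpla2 -0.99 among adipocyte genes, and Cyp2e1 -1.52 among hepatocyte genes. Over the alternatives the Pparg call held in all 18 run, the Adam7 call was lost without mice 686 and 690 together, and the calls of Tekt2, Retn, Pnpla2 and Cyp2e1 were lost on leaving out 10, 7, 9 and 10 single mice in turn. No explanation was tested.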

How the results depend on the processing

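Limits: 3 mice per group, no count of cells, and members whose HFD and liver signals lay near background, where MAS5 values have no order. For the 9 sperm transcripts 423 of 436 alternative values of 36 log2 differences moved by less than the spread between arrays, and 12 of the 13 that moved left out mice; 16 values changed sign, most of them within that wide spread. For single list genes 1517 of 1647 alternatives kept direction and call, 129 lost the call, and Lipe, HFD against ND in WT, turned to -0.66 with the mean of probe sets (adjusted p = 0.306).

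KO against WT on ND gave 29 called genes, 80 with quantile normalization (75 higher), 16 with the mean of probe sets, 10 with the compared arrays alone and 5 to 872 leaving out a mouse (872 without mouse 687, 5 without mouse 718), with 0 to 40 spermatid genes. On HFD it gave 2565 (1539 without mouse 429 to 2638), with 0 spermatid genes in each of those fits and 1 without the filter. HFD against ND gave 25 to 49 spermatid genes in WT leaving out a mouse, and in KO 1 to 13, with 8 from the compared arrays alone. The interaction, 1276 genes, gave 788 with the mean of probe sets and 613 (without mouse 718) to 1843 (without mouse 687), with 0 to 31 spermatid genes, and 0 with the mean of probe sets. Fat against liver gave 9 to 11 spermatid genes in KO ND and 13 to 43 in WT ND leaving out a mouse. In WT HFD, where 3 were called, it gave 5 with mouse as a replicate block, 7 with the mean of probe sets and 6 with the compared arrays alone. The block changed no other count of calls by over 1.5 times.

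Added after seeing the data were fits without mice 686 and 690 and with log means for probe sets and filter. Without both mice KO against WT on ND gave 2 genes, HFD against ND in WT 4523 with 4 spermatid genes, the interaction 384 with 0, and fat against liver in WT ND 5426 with 6. Log means gave 18 spermatid genes for HFD against ND in WT, 3 in KO and 0 for the interaction, and for fat against liver 3 in KO ND, 9 in WT ND and 2 in KO HFD, with fewer spermatid genes tested. Causes of other shifts were not tested. Quantile normalization moved the split of calls between fat and liver from 5316 higher and 2965 lower to 4379 and 3775 in WT ND, from 5409 and 2729 to 4373 and 3477 in KO ND, from 4801 and 2983 to 3935 and 3418 in KO HFD, and from 4723 and 3025 to 4048 and 3465 in WT HFD.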
